A study of Mus musculus with 2 samples.

Results

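The chemokine receptor genes, Cxcr6, Cxcr3, Cxcr4, Ccr7, Ccr2, Ccr9, Ccr1, Cx3cr1 and Xcr1, were followed through all CD45+ liver cells of both libraries. They are 9 of the 27998 genes in the matrices, chosen by symbol, and each had 1 row. The CD122+CD49a+ library came from lineage-negative cells with surface CD122, the interleukin-2 receptor beta chain, and CD49a, integrin alpha 1. The LSM library came from cells that lacked lineage markers and carried Sca-1 together with Mac-1, integrin alpha M. Both gates were sorted from livers of adult wild-type C57BL/6 mice, 7 to 10 weeks old, with no treatment named, and read by droplet sequencing of unique molecular identifiers (UMIs). There was 1 library per gate. No difference between gates therefore has a replicate check, no p-value is given, and all intervals are exact 95% intervals that cover counting error only. How many mice went into each library was not stated in the sources used here.

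Chemokine receptors are G protein-coupled receptors that steer leukocytes along gradients of chemokines, and each leukocyte type carries its own combination of them. In the liver, CXCL16 on the sinusoidal endothelium is the ligand of Cxcr6, which natural killer T cells and resident lymphocytes use to stay in the sinusoids. Ccr7 brings mature dendritic cells and naive T cells into lymph nodes, and Cx3cr1, the receptor of fractalkine, marks patrolling monocytes and circulating effector lymphocytes.

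In the GRCm38 assembly with GENCODE M21 gene models, 6 of the 9 genes lie on chromosome 9. Ccr9, Cxcr6, Xcr1, Ccr1 and Ccr2 form a cluster of 435 kb at chr9:123678439-124113557, and Cx3cr1 lies apart at chr9:119901616-120069879 on the minus strand. Cxcr3 is on chromosome X, Cxcr4 on chromosome 1 and Ccr7 on chromosome 11. The model of Cxcr6 (chr9:123806475-123811760, plus strand) overlaps Fyco1 on the other strand, that of Ccr9 overlaps 6 genes and that of Cx3cr1 overlaps 9 genes. Counts of these 3 genes could share reads with their neighbours, since how strand was handled is not stated there or in the labels. Genes of this receptor family can share sequence, so counts of close relatives are uncertain too.

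The promoter windows of Cxcr6 and Cxcr3, which were higher in the lymphocytes of the CD122+CD49a+ library, and of Cx3cr1, which was lower there, are shown 5′ to 3′ along the gene's strand. Each is the 250 bases before the start that RefSeq gives on GRCm38.p6, where 8 of the 9 genes had an entry. That start can differ from the GENCODE one: the Cx3cr1 window lies inside its GENCODE model, and the Cxcr3 and Cxcr6 windows overlap theirs in part. Capitals mark matches on either strand to TGTGGT (the RUNX core), GAGGAA (PU.1) and CCACCC (KLF).
Cxcr6, chr9:123806227-123806476, plus strand: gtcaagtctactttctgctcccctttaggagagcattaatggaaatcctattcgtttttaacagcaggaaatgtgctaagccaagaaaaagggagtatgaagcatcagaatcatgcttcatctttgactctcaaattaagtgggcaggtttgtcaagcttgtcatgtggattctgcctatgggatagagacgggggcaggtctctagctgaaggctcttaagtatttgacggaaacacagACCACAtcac
Cxcr3, chrX:101734148-101734397, minus strand: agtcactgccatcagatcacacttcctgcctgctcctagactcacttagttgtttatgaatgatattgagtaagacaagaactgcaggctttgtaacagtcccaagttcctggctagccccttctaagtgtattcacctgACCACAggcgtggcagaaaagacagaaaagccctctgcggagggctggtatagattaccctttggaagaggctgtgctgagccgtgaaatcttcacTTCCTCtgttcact
Cx3cr1, chr9:120068297-120068546, minus strand: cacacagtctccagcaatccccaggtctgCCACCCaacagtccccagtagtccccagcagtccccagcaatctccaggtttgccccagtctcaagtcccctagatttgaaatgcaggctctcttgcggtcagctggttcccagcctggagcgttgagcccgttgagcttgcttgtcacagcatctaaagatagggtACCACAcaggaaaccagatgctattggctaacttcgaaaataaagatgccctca
The RUNX core stood in the windows of Cxcr6, Cxcr3, Ccr1 and Cx3cr1, and in 14.0% of all 32851 windows of this length. The PU.1 letters stood in the windows of Cxcr3 and Ccr1 (23.3% of all windows) and the KLF letters in those of Ccr9 and Cx3cr1 (28.1%). The T-box letters AGGTGTGA were found in none of the 8 windows and in 1.12% of all. A match describes the letters only.

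Barcodes with at least 500 detected genes were kept, 1257 of 1655 in the CD122+CD49a+ library and 3074 of 3133 in the LSM library. The kept CD122+CD49a+ cells were shallower, with a median of 1461 UMIs against 5100.5 in the LSM library. The libraries shared 2 kept barcodes. A cell's class was the marker list with the most UMIs in it, with at least 3 UMIs and at least 2 times the next list, and no receptor was on any list. This placed 1013 CD122+CD49a+ and 2022 LSM cells, while 35 and 452 were mixed and 209 and 600 stayed without a class. The CD122+CD49a+ library held 754 lymphocyte-like, 93 cDC2-like, 89 cDC1-like and 42 nonclassical monocyte-like cells. The LSM library held 575 cDC2-like, 326 nonclassical monocyte-like, 219 plasmacytoid DC-like, 200 CD34 progenitor-like, 188 mature DC-like, 176 lymphocyte-like, 150 cDC1-like, 105 basophil or mast cell-like and 50 C1q macrophage cells (DC, dendritic cell). Smaller classes were counted only. UMIs of the 5 hepatocyte genes, read as free RNA, numbered at most 4 in any class.

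The class names were checked against their defining genes. Of the 754 CD122+CD49a+ lymphocyte-like cells, 711 had a CD3 UMI, against 85 of 176 in the LSM library. The other 91 LSM cells of that class were led by Nkg7, a granule gene that is itself on the lymphocyte list, and by Lmna, Wfdc18, Nrgn and Prss2, and 67.0% of them had a UMI of the CD34 progenitor list, against 3.53% of the CD3 cells. Lymphocyte results are therefore given for the CD3 cells as well as for the whole class. The LSM cDC1-like class had all 7 markers detected, but Cadm1 stood at 222 CPM in the CD122+CD49a+ class and 7.12 CPM in the LSM class, and Itgae at 110 and 4.75 CPM, the gene's summed UMIs scaled to a common total per class. In the macrophage class, called Kupffer cell in the marker lists, C1qb had a UMI in 98.0% of the 50 cells and Clec4f, the gene that defines Kupffer cells, in 26.0%, so it is called by its C1q genes here.

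**Figure D1:**
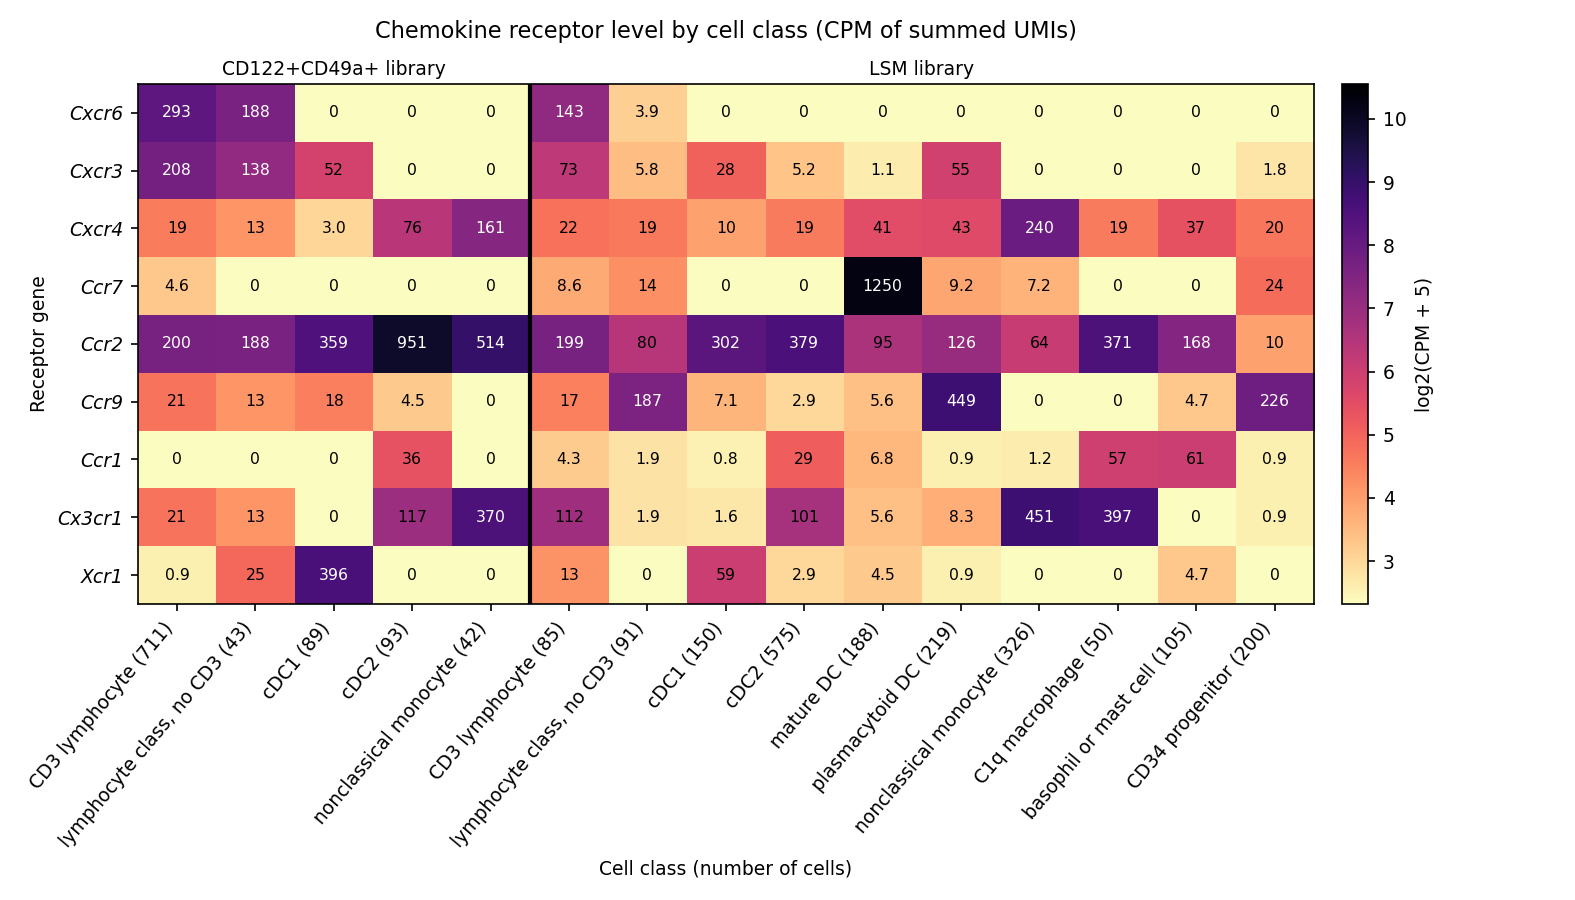
Level of each receptor (rows) in each class of at least 20 cells (columns, number of cells in brackets), as CPM of summed UMIs printed in each field and coloured as log2(CPM + 5). CD122+CD49a+ classes stand left of the line and LSM classes right of it. Cxcr6 is at 0 outside the lymphocyte columns, Ccr7 peaks at 1250 CPM in mature DC-like cells, and Ccr2 is above 0 in every column.

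The classes differed in the receptors that were raised in them. A receptor was called raised when it was at least 2-fold above the other classed cells of its library and had a UMI in at least 5% of the class. It also needed at least 20 UMIs over both sides. Over the 4 CD122+CD49a+ classes, with 7 receptors tested in each, this called 8 pairs of receptor and class. Over the 9 LSM classes, with 9 receptors tested in each, it called 15 pairs. The same rule called 6.09% to 16.9% of all genes tested in the CD122+CD49a+ classes and 1.65% to 14.6% in the LSM classes, with at least 20 UMIs over both sides. Lymphocyte-like cells had Cxcr6 and Cxcr3 in both libraries (background 10.1% in CD122+CD49a+, 3.92% in LSM), and nonclassical monocyte-like cells had Cxcr4 and Cx3cr1 in both (16.9% and 9.55%). The cDC1-like cells had Xcr1 in the CD122+CD49a+ library (6.09%) and Xcr1 with Cxcr3 in the LSM library (2.68%). The cDC2-like cells had Ccr2 in both, with Cxcr4 and Cx3cr1 in CD122+CD49a+ (9.16%) and with Ccr1 in LSM (1.65%). Ccr1 also passed the fold and the share in the CD122+CD49a+ cDC2-like cells (29.3-fold, 7.53% of cells). It was not counted there because it had 8 UMIs in the class and 2 in the other classed cells, under the minimum. Of the classes held by the LSM library, mature DC-like cells had Ccr7 (6.95%), plasmacytoid DC-like cells Ccr9 and Cxcr3 (7.75%), CD34 progenitor-like cells Ccr9 (12.1%), C1q macrophages Cx3cr1 and Ccr1 (14.6%) and basophil or mast cell-like cells Ccr1 (7.38%). For CD34 progenitor-like cells, 1 of 9 receptors called is near that background. The count was also 1 of 9 in mature DC-like and basophil or mast cell-like cells, and 1 of 7 in CD122+CD49a+ cDC1-like cells. Every class had only 1 to 3 receptors called. No count of a class is therefore read as an excess over its background. A call also depends on the other classed cells, which differ between the libraries, so a call in 1 library only is not a difference between libraries. Cxcr3 was at 51.7 CPM in CD122+CD49a+ cDC1-like cells and 27.7 CPM in LSM ones. Cx3cr1 was at 117 and 101 CPM in the cDC2-like cells.

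Cxcr6 UMIs of classed cells were found in the lymphocyte-like class alone. Cxcr6 had 331 UMIs in the CD122+CD49a+ lymphocyte-like cells and 0 in the other classed cells of that library. With the 0 set at 3 counts it was 66.3-fold higher, and the exact interval of the ratio starts at 53.6. In the LSM library it had 35 UMIs in the lymphocyte-like class and 0 in the other classed cells. That was 144-fold higher with the 0 set at 3 counts, with an interval from 111. The only other Cxcr6 UMIs among kept cells were 4 in CD122+CD49a+ cells without a class and 1 in LSM mixed cells. After each cell was thinned to 1000 UMIs, Cxcr6 was seen in 24.0% (20.6 to 27.6) of CD122+CD49a+ lymphocyte-like cells and in 0 of 318 LSM nonclassical monocyte-like cells, which allows up to 0.943%. The median depths were 1301 UMIs in these lymphocytes and 2378.5 in these monocytes.

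Cxcr3, the receptor for the interferon-induced chemokines CXCL9 and CXCL10, was wider. It stood at 203 CPM (178 to 231) in CD122+CD49a+ lymphocyte-like cells, followed by 51.7 CPM in the cDC1-like cells of that library. In the LSM library plasmacytoid DC-like cells led with 55.5 CPM (42.3 to 71.4), 2.0-fold (1.30 to 3.13) above the cDC1-like cells at 27.7 CPM. The LSM lymphocyte-like class, at 26.8 CPM, did not differ from the cDC1-like cells beyond counting error, and its CD3 cells stood at 73.5 CPM. Cxcr3 had 0 UMIs in the nonclassical monocyte-like cells of both libraries.

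Ccr7 and Ccr9, receptors of lymphoid homing, marked other cells. Ccr7 reached 1250 CPM (1177 to 1326) in LSM mature DC-like cells, with a UMI in 77.7% of them and up to 28 UMIs in a cell. That was 52.9-fold (35.9 to 81.3) above CD34 progenitor-like cells, the next class at 23.6 CPM. The classes below the mature DC-like cells followed in the order CD34 progenitor-like, lymphocyte-like (12.1 CPM), plasmacytoid DC-like (9.25 CPM) and nonclassical monocyte-like cells (7.23 CPM). Neighbours in this order did not differ beyond counting error, and classes further apart were not compared. The 5 mature DC-like cells of the CD122+CD49a+ library held 8 Ccr7 UMIs. Ccr9, the receptor of the gut and thymus chemokine CCL25, stood at 449 CPM (410 to 490) in plasmacytoid DC-like cells, 1.98-fold (1.70 to 2.32) above the CD34 progenitor-like cells at 226 CPM. Within the CD34 progenitor-like class, 28 cells with at least 2 UMIs summed over Mecom, Procr, Angpt1 and Gata2 were set apart as stem marker cells. The rest were split by a UMI of Dntt, the polymerase of antigen receptor joining. Ccr9 was at 323 CPM in the 94 of these with a Dntt UMI and at 187 CPM in the 78 without one. In the stem marker cells it was at 23.8 CPM, from 4 UMIs.

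The receptors of monocytes and tissue macrophages overlapped in part. Cx3cr1 stood at 451 CPM (406 to 499) in LSM nonclassical monocyte-like cells and at 397 CPM (305 to 507) in C1q macrophages, a ratio of 1.14 (0.869 to 1.51) that counting error covers. The cDC2-like cells followed at 101 CPM, 3.93-fold (2.96 to 5.15) below the macrophages. Cxcr4, the receptor of the stromal chemokine CXCL12, was highest in the LSM nonclassical monocyte-like cells at 240 CPM (208 to 276), 5.52-fold (4.0 to 7.76) above the plasmacytoid DC-like cells. All other LSM classes lay between 10.3 and 43.5 CPM for Cxcr4, with CD34 progenitor-like cells at 20 CPM. Ccr2, the receptor of CCL2 that releases monocytes from the marrow, had UMIs in every class of at least 20 cells, as Cxcr4 did. In the LSM library Ccr2 ranged from 10.0 CPM in CD34 progenitor-like cells to 379 CPM (359 to 400) in cDC2-like cells. The cDC2-like cells did not differ from the C1q macrophages (371 CPM) beyond counting error, nor did these from the cDC1-like cells (302 CPM). The cDC2-like and cDC1-like cells were not compared with each other for Ccr2. The cDC1-like cells were 1.80-fold (1.28 to 2.61) above the basophil or mast cell-like cells.

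Ccr1, which binds CCL3 and CCL5, was low throughout. It stood at 60.6 CPM (32.3 to 104) in basophil or mast cell-like cells, 56.6 CPM in C1q macrophages and 29.0 CPM in cDC2-like cells of the LSM library. The first pair did not differ beyond counting error, nor did the macrophages and the cDC2-like cells. The basophil or mast cell-like and cDC2-like cells were not compared with each other. In the cDC2-like cells of the CD122+CD49a+ library Ccr1 stood at 35.9 CPM, from 8 UMIs. It had 0 UMIs in the 711 CD122+CD49a+ CD3 lymphocytes, which limits the share of cells with a UMI to 0.422% and not the share that express the gene, and 1 UMI in the 85 LSM CD3 lymphocytes.

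The C1q macrophages were not uniform. The 13 cells with a Clec4f UMI held 47 UMIs of Vsig4 and 109 of Cd5l, both genes of Kupffer cells, against 0 and 3 in the 37 cells without one. Ccr2 stood at 159 CPM in the cells with a Clec4f UMI and 438 CPM in those without, a ratio of 0.363 (0.128 to 0.844). Cx3cr1 stood at 397 and 396 CPM, with 15 and 48 UMIs and an interval of the ratio from 0.521 to 1.82. This split was chosen after the values were seen.

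The comparison of Cxcr6 with Ccr7 and Cx3cr1 asked how the lymphocytes of the 2 gates differ in receptors of tissue residence and of circulation. Over the whole lymphocyte-like class, Cxcr6 was at 286 CPM (256 to 319) in the CD122+CD49a+ library and 47.0 CPM (32.7 to 65.3) in the LSM library, a ratio of 6.09 (4.29 to 8.89). It was 1.89 (1.32 to 2.79) when Nkg7 and Klrk1 were taken off the lymphocyte list, an alternative chosen after the data were seen. Among all 7261 genes tested there, 27.8% were at least 2-fold higher and 11.3% at least 2-fold lower. Among CD3 cells alone, Cxcr6 was at 293 CPM (262 to 327) in the CD122+CD49a+ library and 143 CPM (98.2 to 200) in the LSM library, a ratio of 2.06 (1.43 to 3.04). In that fit 29.2% of 6134 genes were at least 2-fold higher and 7.01% at least 2-fold lower, and the median gene had a ratio of 1.26. The Cxcr6 ratio in CD3 cells thus lay close to the 2-fold line: it was 1.91 with TMM scaling and between 1.57 and 2.16 over all alternatives.

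Cx3cr1 went the other way. In CD3 cells it was at 21.3 CPM (13.5 to 32.0) in the CD122+CD49a+ library, from 23 UMIs in 711 cells, and at 112 CPM (73.4 to 165) in the LSM library, from 26 UMIs in 85 cells. The ratio was 0.190 (0.104 to 0.346), and it lay between 0.155 and 0.298 over the alternatives. Over the whole class the ratio was 0.572 (0.316 to 1.03), and the 91 LSM cells without CD3 held 1 Cx3cr1 UMI. Among cells passing a stricter filter, 1000 genes or more and mitochondrial UMIs of 5% or less, the whole-class ratio was 1.13 (0.261 to 3.80), so its direction did not hold there. Ccr7 was nearly absent from the lymphocytes of both libraries. CD3 cells held 5 Ccr7 UMIs in the CD122+CD49a+ library and 2 in the LSM library, a ratio of 0.537 (0.0879 to 5.64), and a difference was not detectable at this depth. The whole class held 5 and 9 Ccr7 UMIs, and 7 of the LSM UMIs were in cells without CD3.

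**Figure D2:**
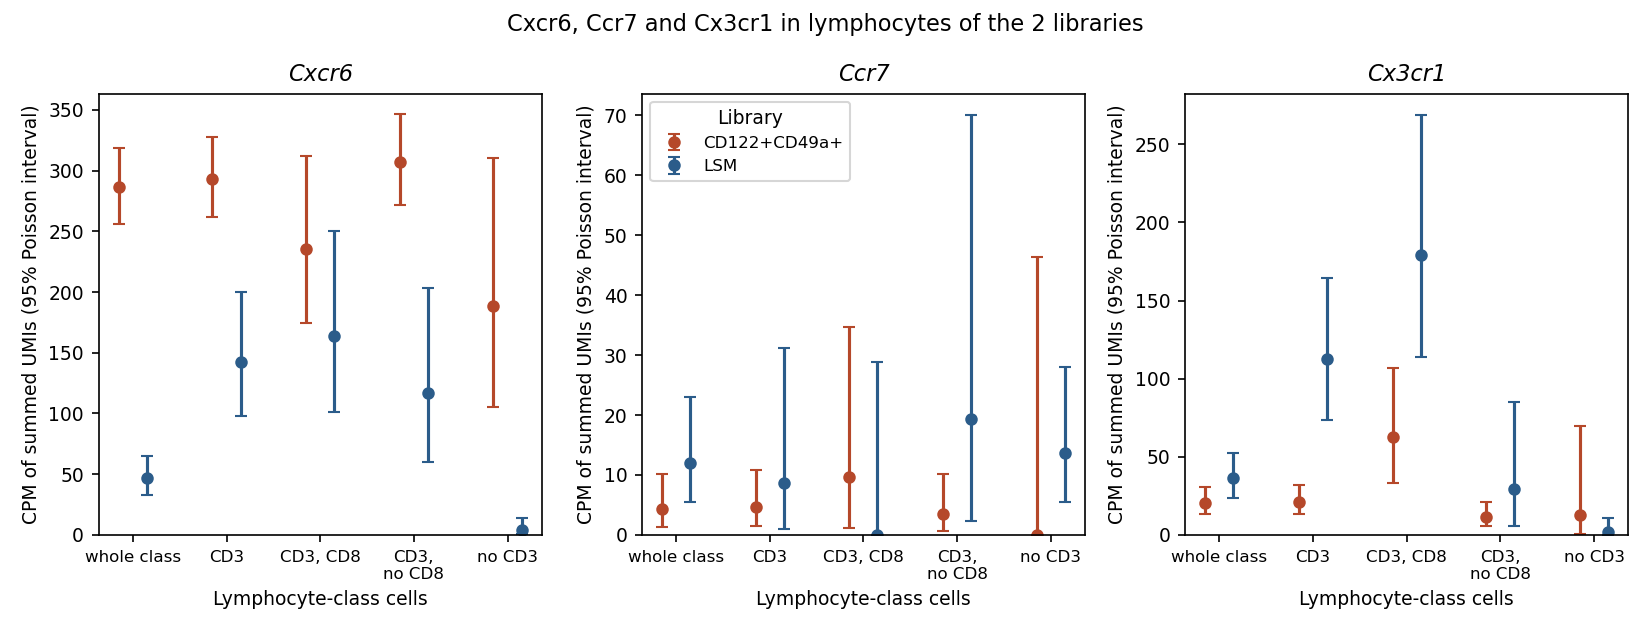
CPM of summed UMIs of Cxcr6, Ccr7 and Cx3cr1 in lymphocyte-like cells of the CD122+CD49a+ (red, left of each pair) and LSM library (blue), for the whole class and for cells with CD3, with CD3 and CD8, with CD3 and no CD8, and with no CD3 UMI. Points are pooled levels and bars are exact 95% Poisson intervals. The 2 intervals of Cxcr6 in CD3 cells do not overlap, and those of Cx3cr1 do not overlap either.

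The detected CD8 share of the CD3 cells differed between the gates: 17.0% of those in the CD122+CD49a+ library and 60% in the LSM library had a CD8 UMI. These shares were not thinned, and the CD122+CD49a+ cells were shallower. A cell with no CD8 UMI may still express CD8. Within CD3 cells with a CD8 UMI, Cxcr6 was at 236 CPM in the CD122+CD49a+ library and 164 CPM in the LSM library, a ratio of 1.44 (0.847 to 2.53) that includes 1. Here 11.6% of genes were at least 2-fold higher and 12.2% at least 2-fold lower. Within CD3 cells with no CD8 UMI it was at 307 and 116 CPM, a ratio of 2.64 (1.48 to 5.17), with 26.4% of genes at least 2-fold higher and 8.26% lower. Cx3cr1 in the CD8 cells was at 62.5 CPM in the CD122+CD49a+ library and 179 CPM in the LSM library, a ratio of 0.349 (0.162 to 0.718). In cells with no CD8 UMI it had 10 and 3 UMIs, and the ratio of 0.395 (0.102 to 2.23) was not distinguishable from 1. The part of the CD8 share in the difference over all CD3 cells was not tested beyond these strata.

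Shares of cells were less clear than levels. At 1000 UMIs per cell, Cxcr6 was seen in 24.2% (20.8 to 27.9) of 583 CD122+CD49a+ CD3 lymphocytes and 14.3% (7.61 to 23.6) of 84 LSM CD3 lymphocytes, and in 32.1% and 27.1% before thinning. The intervals of these Cxcr6 shares overlap, both thinned and unthinned, while those of the CPM do not. Cx3cr1 was seen in 1.89% (0.946 to 3.35) and 11.9% (5.86 to 20.8) of them, and in 2.67% and 18.8% before thinning. In the cDC1-like cells, which should lack Cx3cr1, it was seen in 0 of 88 thinned cells of the CD122+CD49a+ library, which allows up to 3.41%, and in 0 of 150 of the LSM library, which allows up to 2%. The thinned Cx3cr1 share of the CD122+CD49a+ lymphocytes was within the limit of its background class. The pooled level of the whole lymphocyte-like class there was 20.7 CPM from 24 UMIs, and the cDC1-like cells had 0 UMIs. With that 0 set at 3 counts the level was 2.27-fold higher, and the exact interval of the ratio starts at 1.71. Ccr7 was seen in 0.515% of the CD122+CD49a+ cells and in none of the 84 LSM cells, where the limit is 3.57%. Before thinning its shares were 0.703% and 2.35%, the other way round, so no order is read from them. CD3 cells had a median of 1310 UMIs in the CD122+CD49a+ library and 2342 in the LSM library.

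Among the other receptors of the CD3 lymphocytes, Cxcr3 was past the 2-fold line. Of the 9 receptors 6 were measured, 2 were at least 2-fold higher and 1 lower, against 29.2% and 7.01% of all genes. Cxcr3 was at 208 CPM (182 to 237) in the CD122+CD49a+ library and 73.5 CPM (42.8 to 118) in the LSM library, a ratio of 2.83 (1.73 to 4.94). The ratio lay between 2.24 and 2.97 over the alternatives, and was 2.26 (1.06 to 5.38) within CD8 cells and 2.83 (1.41 to 6.65) within cells with no CD8 UMI. Ccr2 stood at 200 CPM in the CD122+CD49a+ library and 199 CPM in the LSM library, a ratio of 1.0 (0.727 to 1.41). Cxcr4 was low, at 18.6 and 21.6 CPM, with a ratio of 0.859 (0.313 to 2.93). Ccr9 depended on the cells taken: its ratio was 0.155 (0.0946 to 0.243) over the whole class and 1.23 (0.422 to 4.91) in CD3 cells. Of the 100 LSM Ccr9 UMIs in the class, 96 were in cells without CD3.

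**Figure D3:**
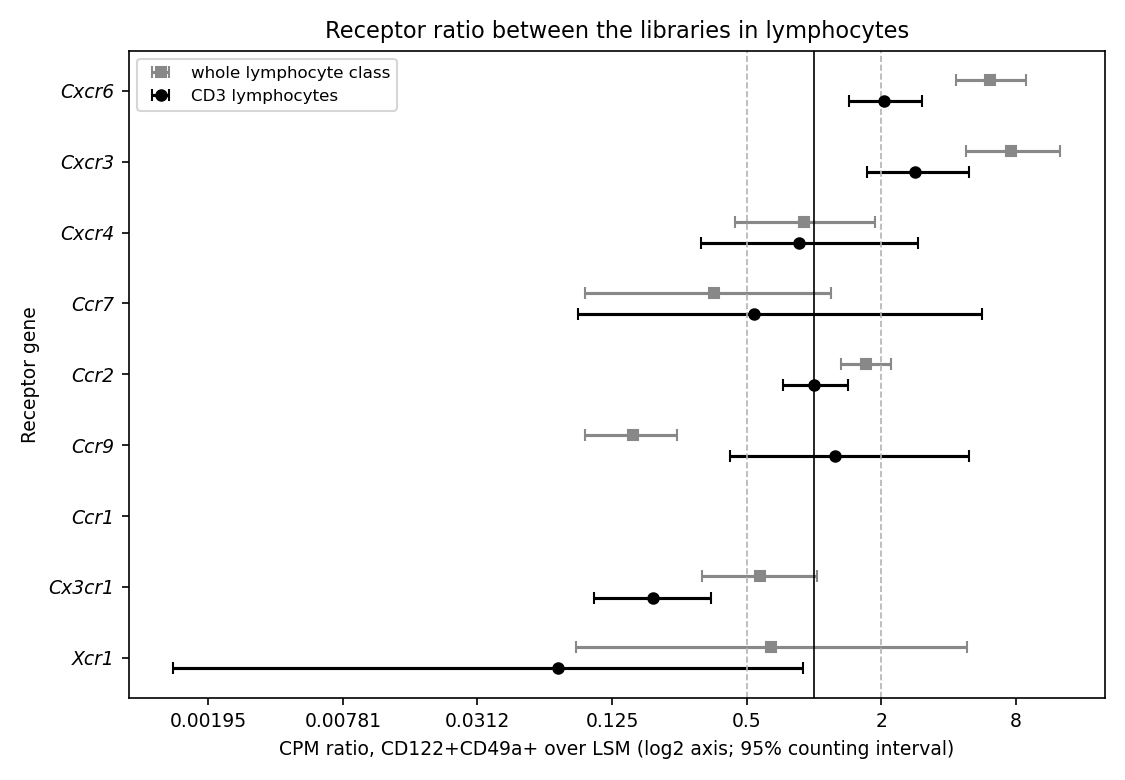
Ratio of receptor CPM in the CD122+CD49a+ library over the LSM library (log axis) with exact 95% counting intervals, for the whole lymphocyte-like class (grey squares) and its CD3 cells (black circles). The solid line marks a ratio of 1 and the dashed lines 2-fold either way; Ccr1 had too few UMIs for a ratio. Cxcr6 and Cxcr3 lie right of 1 in both sets, Cx3cr1 lies left, and Ccr9 moves from 0.155 to 1.23 between the sets.

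Receptors also met in the same cells. Of the 711 CD122+CD49a+ CD3 lymphocytes, 228 had a Cxcr6 UMI, 183 a Cxcr3 UMI and 66 both. A Ccr2 UMI was found in 151 cells, 62 of them with Cxcr6. Cx3cr1 was found in 19 cells, 5 of them with Cxcr6, and Ccr7 in 5 cells, 1 of them with Cxcr6. Among thinned cells, Cx3cr1 was seen in 0 of 141 cells with Cxcr6 and in 11 of 442 (2.49%, 1.25 to 4.41) without it. The exact interval of 0 of 141 reaches 2.58%, so the shares were not distinguishable. Cxcr3 was seen in 21.3% (14.8 to 29.0) of the thinned cells with Cxcr6 and 18.3% (14.8 to 22.3) of those without. Ccr2 was seen in 20.6% (14.2 to 28.2) and 14.5% (11.3 to 18.1). Both pairs of intervals overlap, so these thinned shares are not read as an excess. Overlap does not test a difference. The summed Ccr2 UMIs of all 711 cells, taken up below, gave a ratio of 1.72 (1.30 to 2.26). In the LSM library 5 of 85 CD3 lymphocytes had both Cxcr6 and Cx3cr1, of 23 and 16 with each. Of the 583 thinned CD122+CD49a+ cells, 286 showed none of the 9 receptors, 227 showed 1, 61 showed 2, 8 showed 3 and 1 showed 4 or more.

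Cells with a Cxcr6 UMI were compared with those without one in the other receptors and in genes of residence and circulation. A cell with no UMI at this depth may still express the gene. Ccr2 was at 279 CPM in the CD122+CD49a+ CD3 cells with a Cxcr6 UMI and 163 CPM in those without, a ratio of 1.72 (1.30 to 2.26). Ccr9 had 13 and 10 UMIs, a ratio of 2.82 (1.14 to 7.18). Between these cells 2.17% of 5616 genes were at least 2-fold higher and 4.27% at least 2-fold lower. S1pr1, the receptor that leads lymphocytes out of tissue, was at 32.3 CPM with and 63.7 CPM without a Cxcr6 UMI (0.507, 0.237 to 0.992), and Klf2, its activator, at 103 and 153 CPM (0.671, 0.446 to 0.989). Cd69, which holds S1pr1 inside the cell, was at 94.1 and 149 CPM (0.631, 0.411 to 0.942), and Xcl1 at 594 and 717 CPM (0.828, 0.70 to 0.975). Itga1, the CD49a chain used in the gate, was at 76.4 and 77.3 CPM. The other measured genes of both lists had ratios with intervals that include 1. In the recirculation list these were S1pr4 (0.747), Il7r (0.750), Klf3 (1.01), Tcf7 (1.02) and Lef1 (1.32). In the residence list they were Rgs2 (0.828), Zfp683 (0.903), Cd160 (0.987), Rgs1 (1.07) and Inpp4b (1.32). The 19 cells with a Cx3cr1 UMI had Klf2 at 418 CPM, against 127 CPM in the 692 cells without one. That ratio was 3.29 (1.83 to 5.55). Xcl1 stood at 52.3 CPM, from 2 UMIs, against 701 CPM. S1pr1 (3.13), S1pr4 (2.68), Cd160 (0.307) and Ccr2 (0.255) also had intervals that exclude 1. The intervals of Cxcr6, Cxcr3, Itga1, Cd69, Rgs1, Rgs2, Inpp4b, Klf3, Tcf7 and Il7r include 1. Median depth was 1684 UMIs with and 1308.5 without a Cx3cr1 UMI, and no share over all genes was taken for this split.

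**Figure D4:**
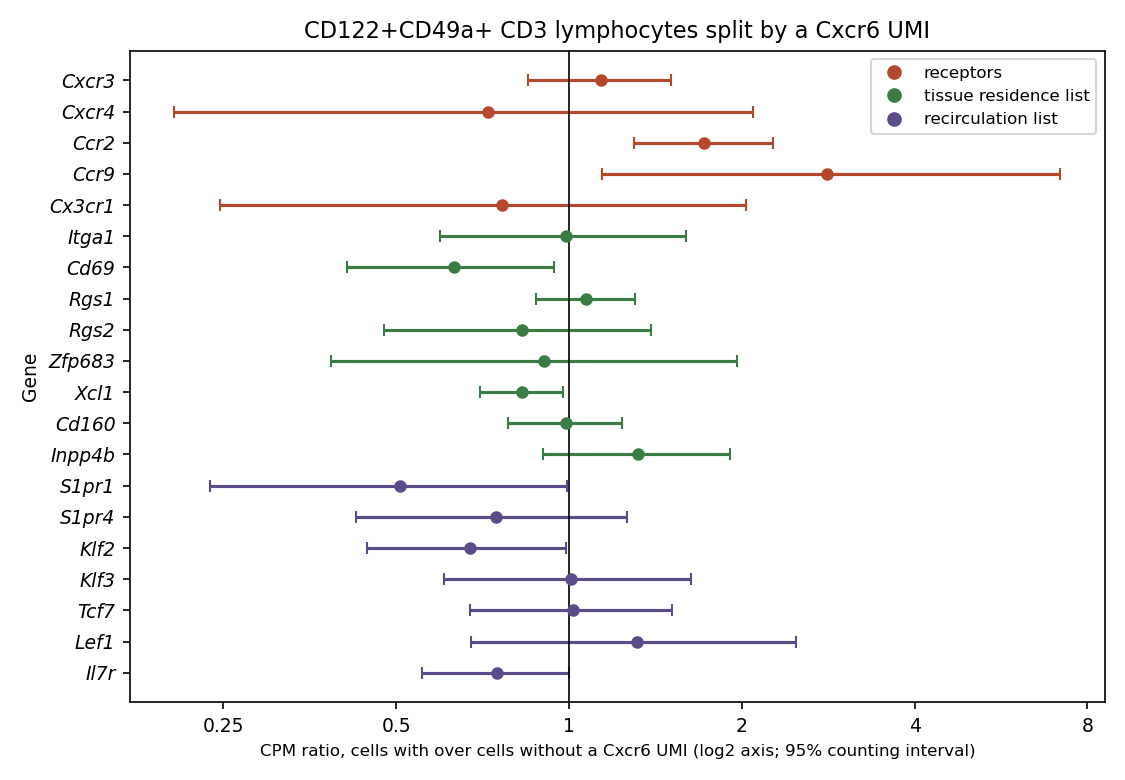
Ratio of CPM in CD122+CD49a+ CD3 lymphocytes with a Cxcr6 UMI (228 cells) over those without (483 cells), on a log axis with exact 95% counting intervals, for receptors (red), the tissue residence list (green) and the recirculation list (purple) with at least 20 UMIs. Ccr2 and Ccr9 lie right of 1, and Cd69, Xcl1, S1pr1 and Klf2 lie left of it.

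Besides the lymphocytes, 3 classes were held by both libraries. In nonclassical monocyte-like cells Ccr2 was at 514 CPM (352 to 726) in the CD122+CD49a+ library and 63.9 CPM in the LSM library, a ratio of 8.05 (5.02 to 12.7), where 19.7% of 4434 genes were at least 2-fold higher. It was seen in 37.5% (21.1 to 56.3) of 32 and 4.40% (2.43 to 7.28) of 318 thinned cells. The monocyte markers of these cells summed to 4002 CPM in the CD122+CD49a+ library and 4009 CPM in the LSM library, and those of classical monocytes, which carry Ccr2, to 129 and 165 CPM. Single markers differed under these sums: Ace was at 1382 CPM in the CD122+CD49a+ library and 529 CPM in the LSM library, Fabp4 at 96.4 and 650 CPM, Cd300e at 129 and 393 CPM, and Chil3, a classical monocyte gene, at 48.2 and 18.1 CPM. Mgst1 gave 5 of the 8 and 119 of the 137 classical monocyte UMIs. The Kupffer cell list stood at 48.2 CPM (9.94 to 141) from 3 UMIs in the CD122+CD49a+ library and 2.41 CPM (0.292 to 8.71) in the LSM library. The part of these differences in the Ccr2 result was not tested. Cx3cr1 stood at 370 CPM (234 to 555) in the CD122+CD49a+ library and 451 CPM in the LSM library (0.820, 0.513 to 1.25), and Cxcr4 at 161 and 240 CPM (0.670, 0.316 to 1.26). In cDC2-like cells Ccr2 was at 951 CPM (828 to 1088) in the CD122+CD49a+ library and 379 CPM in the LSM library, a ratio of 2.51 (2.16 to 2.91), and Cxcr4 at 76.3 and 19.3 CPM (3.96, 2.18 to 6.82). The classical monocyte markers moved with them, at 85.3 CPM (51.3 to 133) in the CD122+CD49a+ cDC2-like cells and 27.6 CPM (22.4 to 33.7) in those of the LSM library, and their part in the result was not tested. There 26.3% of 7515 genes were at least 2-fold higher, and Cx3cr1 had a ratio of 1.16 (0.745 to 1.72).

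Xcr1, the receptor of the lymphocyte chemokine XCL1, was highest in cDC1-like cells of both libraries. It stood at 396 CPM (330 to 470) in those of the CD122+CD49a+ library, with 3 UMIs in all other classed cells and 45 in cells without a class there, and at 58.6 CPM (46.0 to 73.5) in those of the LSM library. The ratio was 6.75 (5.04 to 9.11), where 17% of 5371 genes were at least 2-fold higher. It was seen in 30.7% of 88 thinned CD122+CD49a+ cells and 4.67% of 150 thinned LSM cells. The cDC1 markers themselves summed to 1433 CPM in the CD122+CD49a+ class and 537 CPM in the LSM class. Among cells with a Clec9a UMI, a split chosen after the values were seen, Xcr1 was at 406 CPM in 55 CD122+CD49a+ cells and 77.6 CPM in 83 LSM cells, a ratio of 5.23 (3.64 to 7.55). Cadm1 had 44 UMIs in the 55 CD122+CD49a+ cells and 3 in the 83 LSM cells. Whether the LSM class is the same cell type was not tested. Cxcr3 (1.87, 0.981 to 3.42) and Ccr2 (1.19, 0.960 to 1.47) in cDC1-like cells had ratios that include 1.

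**Figure D5:**
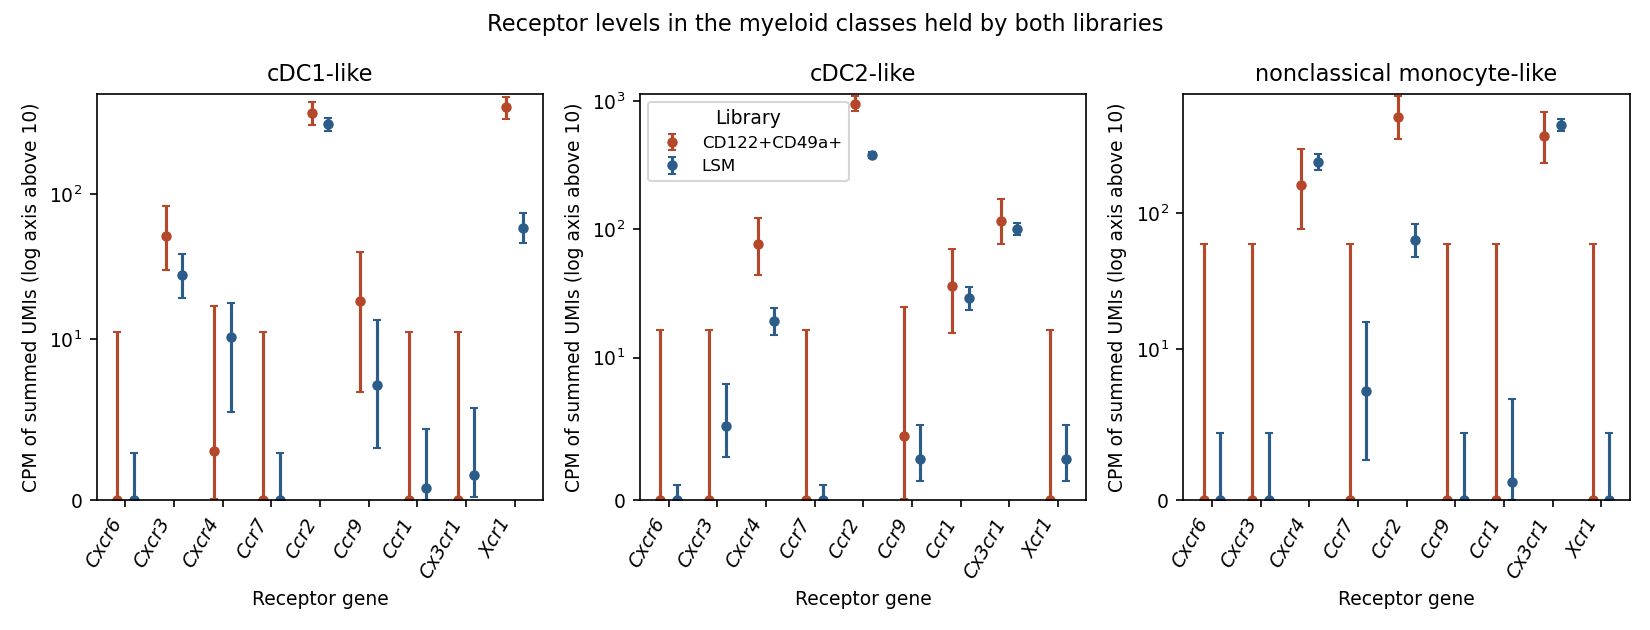
CPM of summed UMIs of the 9 receptors in cDC1-like, cDC2-like and nonclassical monocyte-like cells of the CD122+CD49a+ (red, left of each pair) and LSM library (blue), on an axis that is logarithmic above 10 CPM; bars are exact 95% Poisson intervals. Xcr1 in cDC1-like cells (396 against 58.6 CPM) and Ccr2 in cDC2-like and nonclassical monocyte-like cells stand higher in the CD122+CD49a+ library, and bars from 0 are wide where the CD122+CD49a+ class is small.

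The other genes of the pathway were taken from lists and read in the CD3 lymphocytes. Of 10 genes of receptor signalling, all were measured, 4 were at least 2-fold higher and 0 lower, with a median ratio of 1.43 against 1.26 over all genes, of which 29.2% were higher and 7.01% lower. The 4 were Adrbk1, the kinase that switches receptors off (2.64, 1.79 to 4.03), Grk6, a related kinase (2.36), Dock2, the Rac activator of lymphocyte migration (2.09, 1.45 to 3.11), and Pik3cg, a kinase of receptor signalling whose LSM value rests on 1 UMI. Of 17 ligands with a row, 6 were measured, 1 was higher and 4 were lower, against the same 29.2% and 7.01% of all genes. Xcl1, the Xcr1 ligand, was at 678 CPM in the CD122+CD49a+ library and 90.8 CPM in the LSM library (7.47, 4.85 to 12.1). Ccl3 (0.0776, 0.0508 to 0.116) and Ccl4 (0.0600, 0.0470 to 0.0760), inflammatory chemokines, were lower, with Cxcl10 (0.182) and Cxcl9 (0.429, 0.162 to 1.26).

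The lists of tissue residence and recirculation showed both directions. Of 10 residence genes 9 were measured, and 5 were at least 2-fold higher in the CD122+CD49a+ CD3 cells, against 29.2% of all genes, with a median ratio of 2.43 against 1.26. These were Itga1, which the gate selected (3.56), Xcl1, Cd160 (6.40, 3.62 to 12.5), Inpp4b (6.82, 2.60 to 25.4) and Zfp683, whose interval reached 0.765. Cd69 was lower (0.423, 0.317 to 0.570). Of 9 recirculation genes 8 were measured, with a median ratio of 0.897. Klf2 was at 137 CPM in the CD122+CD49a+ library and 1124 CPM in the LSM library (0.122, 0.0992 to 0.15), and Tcf7, a factor of naive and memory T cells, at 110 and 51.9 CPM (2.13, 1.17 to 4.24). S1pr1 stood at 53.8 and 99.4 CPM (0.541, 0.329 to 0.920), short of the 2-fold line. The strata by CD8 differed. In CD3 cells with a CD8 UMI, 2 of 5 measured residence genes were higher and 0 lower (median ratio 1.25). Of 6 recirculation genes 2 were higher and 1 lower (1.39), against 11.6% and 12.2% of all genes. With no CD8 UMI, 5 of 8 residence genes were higher and 1 lower (3.24). Of 8 recirculation genes 1 was higher and 3 lower (0.624), against 26.4% and 8.26% of all genes.

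Some ligands of the 9 receptors were read in other classes than their receptors. Cxcl16, the ligand of Cxcr6, stood at 622 CPM (571 to 676) in LSM mature DC-like cells and 271 CPM in LSM C1q macrophages. Cxcl9, a ligand of Cxcr3, stood at 1102 CPM in LSM mature DC-like cells. Cxcl12 had 1 UMI in the classes of at least 20 cells, in C1q macrophages.

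The genes whose pattern was most like each receptor were ranked by Pearson's r of log2(CPM + 5) over 13 points, each a class of at least 20 cells in a library, among 4760 genes with at least 50 CPM in a point. The points share library and depth, and r is given as a description. Cxcr6 had UMIs only in the lymphocyte-like points, so its r rests on those points and any gene largely confined to them can score high. The size of r is therefore not compared between receptors. Themis, a T cell signalling gene (r = 0.998), and Gimap3 (0.992) were most like Cxcr6, and Clu (0.931) and Mif4gd (0.931) most like Ccr7. Sirpb1a (0.936) and Hpgd (0.931) were most like Cx3cr1, Tbxa2r (0.958) and Cxxc5 (0.938) most like Ccr9, and Sept3 (0.983) and Dbn1 (0.971) most like Xcr1. For the remaining receptors the highest r was 0.906 for Cxcr4 (Gpcpd1), 0.855 for Cxcr3 (Churc1), 0.825 for Ccr1 (Kcne3) and 0.793 for Ccr2 (Acvrl1).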

How the data were processed

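RNA was read from single cells of both gates by 10x Genomics droplet sequencing. The deposited matrices hold UMI counts per gene and barcode, whole numbers with no normalization, and per the file headers were written by software version 3.0.1. The submitters' processing notes name STAR, Seurat 2.3.0 and GRCm38; how the authors chose barcodes was not stated in the sources used here. Total counts were 2632303 in the CD122+CD49a+ library and 16226070 in the LSM library.

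Barcodes with at least 500 detected genes were kept. Classes were set from marker UMIs (at least 3, and at least 2 times the next of 14 lists), and classes under 20 cells were counted only. UMIs were summed per class and divided by the class total to give CPM. Levels have exact Poisson, ratios exact conditional and shares exact Clopper-Pearson 95% intervals, which cover counting error only. A count of 0 was set at 3 counts for limits. Ratios over all genes used genes with at least 20 UMIs. Shares were compared after thinning each cell to 1000 UMIs, which kept 1039 CD122+CD49a+ and 3052 LSM cells. Doublets were left in, and removed by Scrublet score in an alternative. Interval code was tested on simulated data. Genes named were the 9 receptors, members of the pathway lists, and the 3 genes most like each receptor; genes that lead or split a class were named after their values were seen. The list of other chemokine receptors is not reported here. The members and lists were chosen with earlier results of these data known. Alternatives changed the scaling (TMM, edgeR 4.0.16), cell filter, class rule, thinning depth and gene filter. Python 3.11.15, numpy 2.4.6, scipy 1.17.1, pandas 2.3.3, scanpy 1.11.5 and matplotlib 3.10.9 were used.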

Additional observations from a re-analysis of the deposited data

Results flagged for a closer look

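Receptor UMIs were also present in the barcodes left out for having under 500 detected genes, above the limit that a count of 0 allows there. The 398 such CD122+CD49a+ barcodes, with a median of 666 UMIs, held Cxcr6 at 143 CPM, Cxcr3 at 128 CPM and Ccr2 at 385 CPM, where a count of 0 allows 10.7 CPM. In the same barcodes Cx3cr1 stood at 89.1 CPM, Cxcr4 at 39.2 CPM, Ccr7 at 32.1 CPM and Xcr1 at 21.4 CPM. The 59 such LSM barcodes, with a median of 643 UMIs, held Ccr2 at 437 CPM, Cx3cr1 at 386 CPM, Cxcr4 at 257 CPM and Ccr7 at 103 CPM, where a count of 0 allows 77.1 CPM. These barcodes were given no class.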

How the results depend on the processing

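The Cxcr6 ratio over the whole lymphocyte-like class, 6.09 as reported, was 3.34 as a mean of per-cell CPM, 4.12 with at least 5 marker UMIs, 3.52 with a margin of 4 times, 2.06 in CD3 cells and 1.89 with Nkg7 and Klrk1 off the list, the last chosen after seeing the data. The Cx3cr1 ratio, 0.572 as reported, was 0.312 as a mean of per-cell CPM, 0.190 in CD3 cells, 0.178 with the shortened list and 1.13 under the stricter cell filter (1000 genes or more, mitochondrial UMIs of 5% or less), which left 52 CD122+CD49a+ and 119 LSM lymphocyte-like cells. The Ccr9 ratio reversed, with 1.23 in CD3 cells and 0.155 over the class. The share of CD122+CD49a+ lymphocyte-like cells with Cxcr6 was 31.6% when thinned to a higher depth, 19.3% when thinned to a lower depth and 31.7% without thinning, and in the LSM class 14.2% without thinning, where Ccr7 was at 4.55%. With no filter on low counts 20.3% of genes were at least 2-fold lower over the whole class, and 18.1% higher and 28.9% lower in CD3 cells. TMM scaling shifted log2 ratios by -0.21 over the class and -0.10 in CD3 cells. Of the other values, 167 moved by less than their interval and 25 by more. The cause of these moves was not tested. No paired analysis was possible because each gate had 1 library. Counts of a few UMIs limit Ccr7 and Ccr1 in lymphocytes.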
